A study of Mus musculus with 6 samples.

Results

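10 genes of the p53 and DNA damage response were followed by RNA sequencing in mouse hearts, out of 18005 genes listed in the deposited tables. They were taken by gene symbol as the p53 gene itself, its inhibitor and a set of growth arrest targets: Trp53, Mdm2, Gadd45a, Gadd45b, Gadd45g, Btg2, Sesn1, Sesn2, Ccng1 and Zmat3. All 10 were listed, and all 10 passed the filter on low counts. The hearts came from 3 young and 3 old mice, each labelled as wild type (WT) with no treatment, and the title of the series names pathological cardiac hypertrophy of old age as the subject. No label states age in months, strain or sex. The 3 numbered mice of a group were taken as separate animals, and where they were not, p-values measure only the spread between libraries.

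The protein p53, encoded by Trp53, is a transcription factor that is held at a low level by the ubiquitin ligase Mdm2 and is stabilised after DNA damage. It then raises transcription of Mdm2 and of genes that stop the cell cycle, repair DNA or start cell death. Much of its control acts on the protein, which RNA sequencing does not measure. Several target genes, among them the Gadd45 genes and Btg2, are also switched on by other stimuli, such as stress kinase signalling, growth factors and hormones. Heart muscle cells of adult mice rarely divide, so growth arrest genes there act in a largely non-dividing tissue.

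Libraries held between 11295280 and 12514005 counts, a range in which the groups overlapped (exact 2-sided permutation p = 0.7). In the edgeR quasi-likelihood test 2835 of 12893 genes were called at an adjusted p under 0.05, 1467 higher and 1368 lower in old hearts. Of the calls, 51.7% were higher in old hearts with TMM scaling, a share that became 32.7% under library sizes alone, 35.1% on log2(FPKM + 1) and 40.2% under upper-quartile factors. Summed cardiomyocyte markers (8 genes, 2 called higher and 0 lower) stood at 60532 to 64232 CPM in young and 71393 to 74342 CPM in old hearts, without overlap. The median log2 fold change (old over young) of these 8 genes was 0.08. Their median log2 CPM relative to the young mean did overlap between the groups (0.11 in young 2, 0.03 in old 3). Summed endothelial markers (8 genes, 0 higher and 2 lower) were at 2631 to 2849 CPM in young and 2143 to 2895 CPM in old hearts. Fibroblast markers (8 genes, 1 higher and 2 lower) were at 1822 to 1932 and 1738 to 2150 CPM, and macrophage markers (8 genes, 3 higher and 0 lower) at 793 to 878 and 870 to 1086 CPM, so these 3 lists overlapped between the groups. Markers of dividing cells were scarce, at 19.7 to 20.5 CPM in young and 10.4 to 18.9 CPM in old hearts without overlap, and of 6 tested genes 0 rose and 1 fell. Red cell markers (7 genes, 0 higher and 1 lower) ranged from 2163 to 16086 CPM in young and from 3195 to 6803 CPM in old. The summed adipocyte (5 genes, Ucp1 at 0 throughout) and skeletal muscle markers (6 genes) stayed at or below 1.14 and 22.1 CPM. The part of these cell markers in the results was not tested, and fewer cells of a type and less RNA per cell cannot be told apart in whole tissue.

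Old hearts had more RNA of the Gadd45 genes and of Btg2, and less of Sesn1, while Trp53, Mdm2, Sesn2, Ccng1 and Zmat3 did not pass the test. By edgeR 4 of the 10 genes rose (Gadd45a, Gadd45b, Gadd45g and Btg2) and 1 fell (Sesn1). Across all tested genes 22% were called, 11.4% higher and 10.6% lower. The groups did not overlap in CPM for 5 of the 10 genes in the higher direction and 1 in the lower, against 19.6% and 20.3% of all tested genes (39.9% in either direction). The median log2 fold change (old over young) of the 10 genes was 0.19, and that of all tested genes was -0.01. Without young 3 or without old 1 the single fall was not called. Of the rises, that of Gadd45a was called in only 1 of the 6 fits that omitted 1 library.

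**Figure D1:**
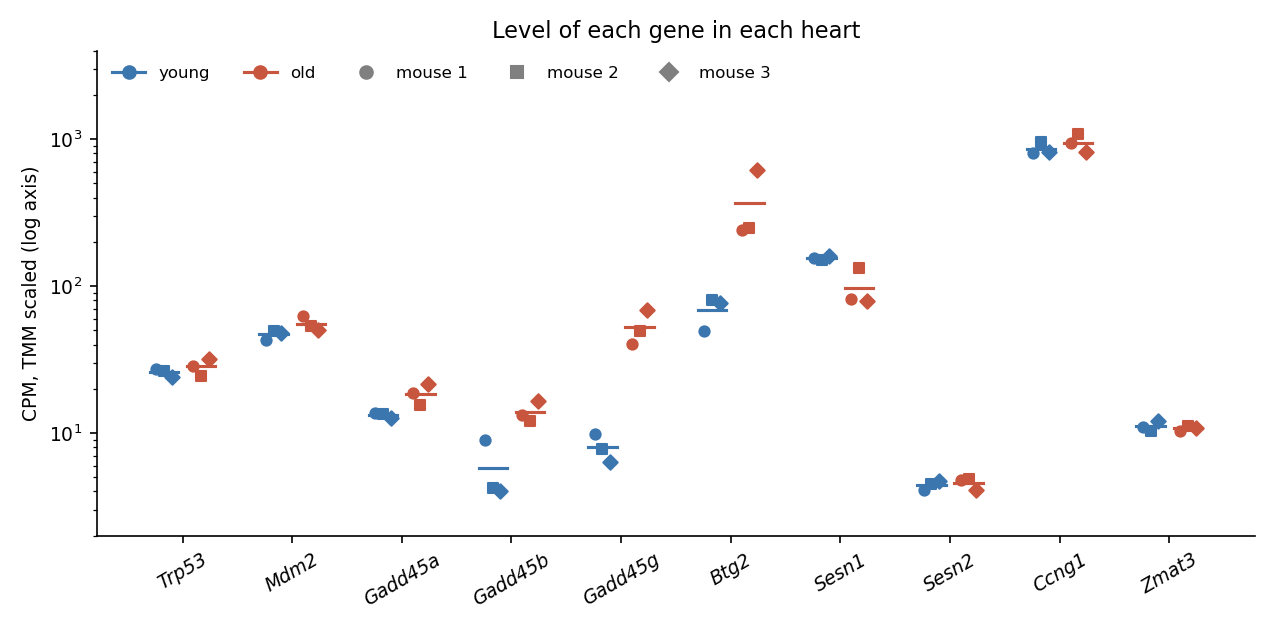
CPM (counts scaled to a common library total with TMM factors, log axis) of the 10 genes in each of the 3 young and 3 old hearts; symbols mark the mouse number and bars the group mean. Gadd45g and Btg2 in old hearts lie far above the young hearts, Sesn1 lies below them, and Trp53, Sesn2, Ccng1 and Zmat3 overlap.

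The p53 gene and its feedback inhibitor differed little between the groups. Trp53 stood at 27.3, 26.5 and 23.99 CPM in young 1 to young 3 and at 28.7, 24.3 and 32.1 CPM in old 1 to old 3, so the groups overlapped. Its log2 fold change was 0.13 ± 0.11 (SE, n = 3 hearts per group, edgeR adjusted p = 0.43), and the 95% interval of the fold ran from 0.925 to 1.29. Mdm2, the ligase that marks p53 for degradation and is itself a p53 target, stood at 43.3, 49.8 and 47.8 CPM in young and 62.2, 53.4 and 50.5 CPM in old hearts. Every old heart was above every young one, but the nearest values, 50.5 and 49.8 CPM, were almost equal. The log2 fold change of Mdm2 was 0.24 ± 0.10 (SE), with an unadjusted p of 0.031 and an adjusted p of 0.10 by edgeR, and a 95% interval of the fold from 1.02 to 1.37. Without old 3, in which Mdm2 was lowest among old hearts, it was called (log2 fold change 0.31, edgeR adjusted p = 0.039). Mdm4, the partner of Mdm2 that blocks p53 activity, was at 38.8 ± 1.27 CPM in young hearts and 38.4 ± 4.62 CPM in old (SD, n = 3; log2 fold change -0.02 ± 0.10, edgeR adjusted p = 0.92, with the sign turned without young 1, old 1 or old 2). Of the FPKM (counts per length of gene and size of library) of Mdm2 and Mdm4 together, Mdm2 made up 54.5% ± 2.60 in young and 58.8% ± 4.51 in old hearts.

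The paralogs of p53 were scarce. Trp53 made up 99.0% ± 0.195 of the summed FPKM of Trp53, Trp63 and Trp73 in young hearts and 97.7% ± 0.258 in old (SD, n = 3). Trp63, which encodes the epithelial family member p63, was at 0.671 ± 0.0891 CPM in young and 1.77 ± 0.0459 CPM in old hearts, which is 1.38 ± 0.31 on the log2 scale (SE, edgeR adjusted p = 0.0082). Trp63 had 7 to 21 counts per library. It missed the threshold with DESeq2 (adjusted p = 0.053), and the edgeR call was kept in all 6 fits that omitted 1 library. Trp73 had counts in old 1 alone and was not tested.

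The 3 Gadd45 genes encode small acidic proteins that bind the kinase Map3k4, the replication factor PCNA and cyclin-dependent kinase 1, and are induced by stress. All 3 rose, by different amounts. Gadd45g was at 9.84, 7.73 and 6.35 CPM in young 1 to young 3 and at 40.02, 49.3 and 68.3 CPM in old 1 to old 3. The lowest old heart was thus far above the highest young heart. The fitted change was 6.58-fold, with 2.72 ± 0.20 as its log2 value (SE, n = 3 per group, edgeR adjusted p = 6.8e-06), the smallest p among the 10 genes. Left-out libraries moved it between 2.49 and 2.90.

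Gadd45b, also known as an early target of NF-kB and TGF-beta signals, was at 8.98, 4.22 and 4.03 CPM in young and 13.3, 12.0 and 16.5 CPM in old hearts. Young 1 stood above the other young hearts, and still below every old heart. Gadd45b changed 2.41-fold (log2 fold change 1.27 ± 0.26, SE, edgeR adjusted p = 0.0049). The call was kept in all 6 fits that omitted 1 library, and the value reached 1.75 without young 1. Gadd45a, the family member best known as a direct p53 target, was at 13.7, 13.5 and 12.7 CPM in young and 18.7, 15.4 and 21.5 CPM in old hearts. The groups did not overlap, and old 2 was nearest to the young hearts. The change of Gadd45a was 1.39-fold (log2 fold change 0.48 ± 0.13, SE, edgeR adjusted p = 0.020). Of the 6 fits that omitted 1 library it was called in 1 (without old 2), the other adjusted p-values reaching 0.088, and it was not called with library size alone or on FPKM values. An antisense transcript, E230016M11Rik, overlaps Gadd45a exons in the GENCODE M21 annotation. It was not analysed here, and since the strand setting of the counting is not given in the sources used here, reads of the pair cannot be told apart.

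The make-up of the family changed with these rises. Gadd45g contributed 32.2% ± 1.71 of the summed FPKM of the 3 genes in young hearts and 64.6% ± 4.87 in old (SD, n = 3). The share of Gadd45a went from 48.6% ± 6.67 to 20.5% ± 3.27 while its own level rose. The summed FPKM of the family was 20.1 to 28.6 in young and 61.2 to 92.5 in old hearts, without overlap.

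Btg2, an antiproliferative p53 target that recruits the CCR4-NOT deadenylase to messenger RNA, had the highest level of the 4 genes that rose. It was at 49.2, 80.9 and 76.5 CPM in young 1 to young 3 and at 239.8, 248.2 and 613.7 CPM in old 1 to old 3. Every old heart was above every young heart, and old 3 was far above the other old hearts. Btg2 changed 5.34-fold (log2 fold change 2.42 ± 0.32, SE, edgeR adjusted p = 0.00037), and the value fell to 1.84 when old 3 was omitted. The edgeR call was kept in all 6 fits that omitted 1 library. Btg2 made up 31.1% ± 3.87 of the summed FPKM of Btg1, Btg2, Btg3, Tob1 and Tob2 in young hearts and 62.9% ± 10.7 in old (SD, n = 3).

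The upstream sequences of the 3 genes that rose most are shown because each was higher in all old hearts than in any young heart, and that of Sesn1 because it was lower. They are the 250 bases before the start site in the RefSeq promoter table (GRCm38.p6, an older build than the GRCm39 of the counts), which held windows for 9 of the 10 genes and 2 start sites for Sesn1. Capitals mark a TATA box (TATAAA), an E-box (CACGTG), a cyclic AMP response element (TGACGTCA) or the p53 decamer, the repeated unit of a full p53 site, on either strand. The Gadd45g window is chr13:51846425-51846674 on the plus strand, that of Gadd45b chr10:80929841-80930090 on the plus strand, that of Btg2 chr1:134079156-134079405 on the minus strand, and the downstream one of Sesn1 chr10:41887189-41887438 on the plus strand.
Gadd45g: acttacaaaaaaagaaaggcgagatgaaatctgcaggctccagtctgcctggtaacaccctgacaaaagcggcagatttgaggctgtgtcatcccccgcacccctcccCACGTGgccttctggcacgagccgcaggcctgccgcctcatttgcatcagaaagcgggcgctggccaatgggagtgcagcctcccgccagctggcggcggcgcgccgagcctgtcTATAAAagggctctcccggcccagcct
Gadd45b: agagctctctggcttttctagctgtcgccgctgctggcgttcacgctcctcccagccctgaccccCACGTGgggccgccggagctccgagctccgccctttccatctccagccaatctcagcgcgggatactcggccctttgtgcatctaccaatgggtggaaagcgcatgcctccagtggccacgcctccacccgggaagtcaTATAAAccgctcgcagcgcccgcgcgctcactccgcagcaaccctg
Btg2: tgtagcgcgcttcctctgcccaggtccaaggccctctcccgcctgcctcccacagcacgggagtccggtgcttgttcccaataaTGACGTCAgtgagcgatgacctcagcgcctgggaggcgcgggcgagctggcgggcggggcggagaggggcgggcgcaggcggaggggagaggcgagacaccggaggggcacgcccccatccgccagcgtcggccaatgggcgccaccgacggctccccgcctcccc
Sesn1: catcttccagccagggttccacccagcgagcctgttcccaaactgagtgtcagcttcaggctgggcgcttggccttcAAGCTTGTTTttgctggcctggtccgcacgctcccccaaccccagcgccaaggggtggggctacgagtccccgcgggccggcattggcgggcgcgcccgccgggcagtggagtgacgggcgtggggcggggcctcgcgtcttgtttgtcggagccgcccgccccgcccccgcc

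In these windows Gadd45g had a TATA box starting 27 bases and an E-box 142 bases before the start site. Gadd45b had a TATA box at 46 bases and an E-box at 185 bases. The window of Trp53, which did not pass the test, held a TATA box too, starting 248 bases before the start site and on the opposite strand. Of all 32851 windows, 12.4% held a TATA box, 6.02% an E-box and 0.517% both. The pair counted is the one that Gadd45g and Gadd45b hold, so its share is description and not independent support. The Btg2 window held the cyclic AMP response element, found in 1.55% of all windows, starting 166 bases before the start site. The p53 decamer was found in 7.13% of all windows and in those of Trp53, Mdm2, Gadd45a and Ccng1. Of the Sesn1 windows, the downstream one printed here held it and the upstream one did not. A full p53 site, taken as a pair of decamers with at most 13 bases between them and no mismatch, was found in 0.0639% of all windows and in none of the windows of the 9 genes. None of them held an AP-1 element (TGANTCA), a CArG box or a glucocorticoid response element, which 6.75%, 1.47% and 0.387% of all windows held. A CCAAT box was found in all 10 windows of the 9 genes and in 33.8% of all windows. An Sp1 box (GGGCGG) was found in 7 of the 10 and in 32.7% of all windows. A match of letters is not a binding site, and sites elsewhere in a gene, such as the intronic p53 elements known in Mdm2 and Gadd45a, lie outside these windows.

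Sesn1 and Sesn2 encode sestrins, stress-induced proteins that hold back the growth kinase complex mTORC1 through the GATOR complexes. Sesn1, the sestrin most tied to p53, was at 156.2, 150.6 and 159.0 CPM in young and at 82.2, 132.1 and 78.8 CPM in old hearts. The young hearts lay within a narrow range, and all old hearts were below it, with old 2 nearest. Sesn1 fell by 0.67 ± 0.16 on the log2 scale (SE, edgeR adjusted p = 0.013), to 0.629 of the young level. The call was lost without young 3 (adjusted p = 0.059), without old 1 (0.054) and with DESeq2 (0.057). Sesn2, the sestrin known as a target of the amino acid stress factor Atf4, was low, at 4.06, 4.48 and 4.72 CPM in young and 4.78, 4.84 and 4.07 CPM in old hearts. It had 47 to 61 counts per library, and its groups overlapped throughout. The log2 fold change of Sesn2 was 0.05 ± 0.18 (SE, edgeR adjusted p = 0.87; 95% interval of the fold 0.792 to 1.35), with the sign turned under upper-quartile factors, library size alone, on FPKM values and without young 1. Sesn1 made up 90.5% ± 0.688 of the summed FPKM of Sesn1, Sesn2 and Sesn3 in young and 84.6% ± 4.69 in old hearts. Summed sestrin FPKM was 49.9 to 54.8 in young and 28.3 to 41.9 in old hearts.

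**Figure D2:**
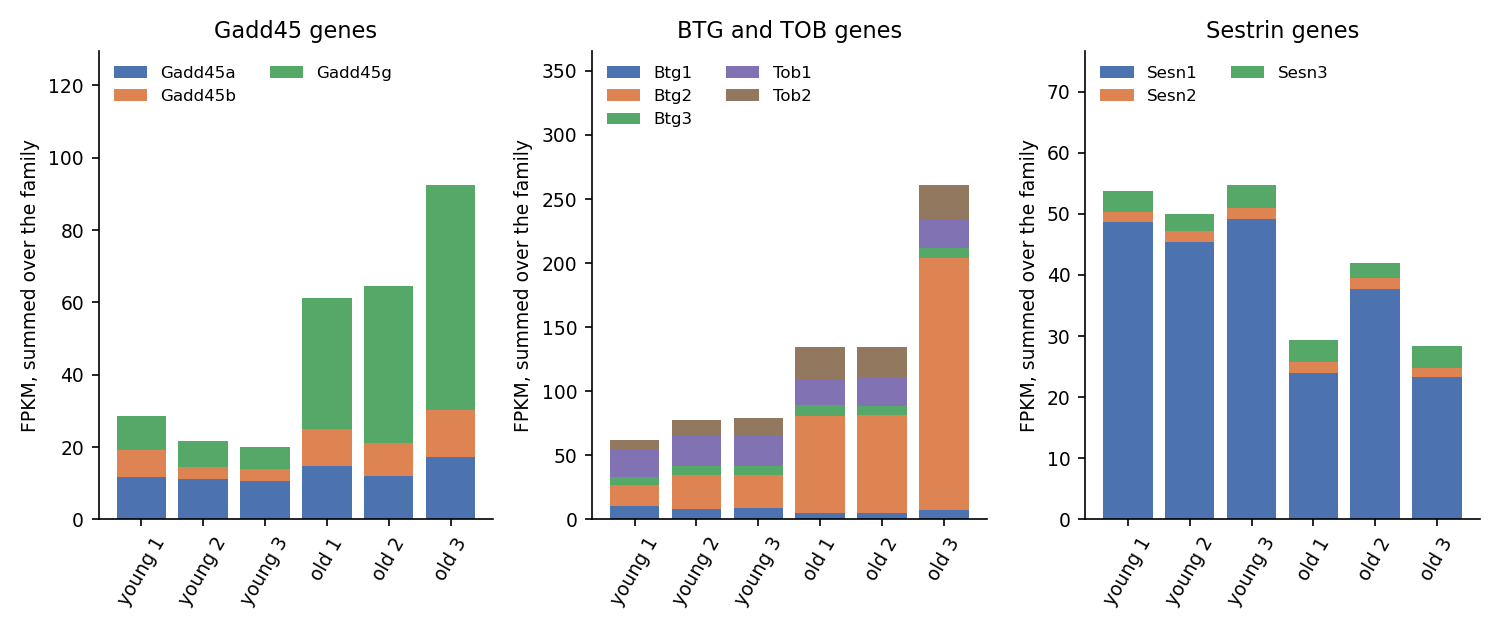
FPKM of each gene, stacked by family, in each of the 6 hearts (3 panels: Gadd45, BTG and TOB, sestrins; every axis starts at 0). Gadd45g and Btg2 take the larger part of their families in the old hearts, and Sesn1 takes the larger part of its family in all 6 hearts.

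Ccng1, which encodes cyclin G1, a p53 target that recruits phosphatase 2A to Mdm2, was the most expressed of the 10 genes. It was at 809.1, 954.8 and 812.6 CPM in young and 940.4, 1076.3 and 822.0 CPM in old hearts. The groups overlapped, and young 2 was above old 1 and old 3. Its log2 fold change was 0.14 ± 0.11 (SE, edgeR adjusted p = 0.39; 95% interval of the fold 0.933 to 1.30). Its paralog Ccng2, named after its value was seen, was lower in old hearts (log2 fold change -0.39 ± 0.11, SE, edgeR adjusted p = 0.031). Zmat3, an RNA-binding p53 target, was at 11.01, 10.3 and 12.2 CPM in young and 10.4, 11.2 and 10.7 CPM in old hearts. The old values lay within the young range. The log2 fold change of Zmat3 was -0.05 ± 0.12 (SE, edgeR adjusted p = 0.79; 95% interval of the fold 0.805 to 1.16), with the sign turned without young 3.

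**Figure D3:**
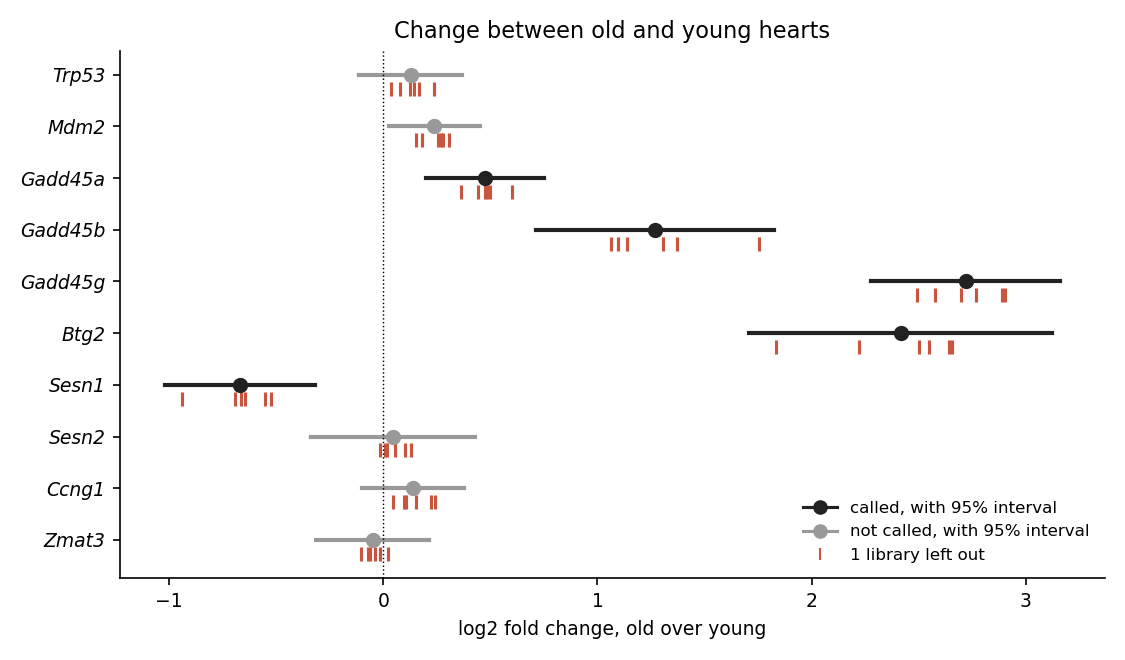
Log2 fold change, old over young, of the 10 genes (points) with the 95% interval from the edgeR fit (lines) and the value with 1 library left out (ticks). Gadd45g (2.72), Btg2 (2.42), Gadd45b (1.27) and Gadd45a (0.48) were called higher and Sesn1 (-0.67) lower.

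Compared per length, the order of the levels differed between young and old hearts. In young hearts the mean FPKM ran from Ccng1 (252.8 ± 20.1, SD, n = 3) through Sesn1 (47.8 ± 2.03), Btg2 (22.9 ± 5.45), Trp53 (11.7 ± 0.809), Gadd45a (11.2 ± 0.496), Gadd45g (7.58 ± 1.74), Mdm2 (6.51 ± 0.372), Gadd45b (4.68 ± 2.35) and Sesn2 (1.71 ± 0.121) to Zmat3 (1.41 ± 0.135). Trp53 overlapped with Gadd45a, and Mdm2 overlapped with both Gadd45g and Gadd45b, so these neighbours were not ordered beyond their spread. In old hearts Ccng1 (263.4 ± 30.9) was followed by Btg2 (116.4 ± 69.4), Gadd45g (47.3 ± 13.5), Sesn1 (28.3 ± 8.17), Gadd45a (14.7 ± 2.67), Trp53 (12.1 ± 1.86), Gadd45b (10.7 ± 1.94), Mdm2 (7.26 ± 0.793), Sesn2 (1.67 ± 0.134) and Zmat3 (1.29 ± 0.0413). Gadd45g overlapped with Sesn1, and Trp53 overlapped with Gadd45a and Gadd45b. Gadd45g stood at the sixth place in young and the third in old hearts.

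Library old 3 stood apart for part of these genes. On the log2 CPM scale, taken relative to the young mean, Btg2 was at 1.83 in old 1, 1.88 in old 2 and 3.19 in old 3. Gadd45g was at 2.33, 2.63 and 3.09, and Gadd45b at 1.28, 1.14 and 1.59. A list of 26 tested immediate early genes, which respond to stimuli within minutes and hold none of the 10 genes, had medians of 1.498, 1.57 and 2.79 in the same hearts. Of those 26 genes 24 rose and 0 fell (20 to 26 rose with a library left out), while 11.4% of all tested genes were called higher. A list of 14 glucocorticoid target genes, of which 11 rose and 0 fell, had medians of 1.04, 1.01 and 0.92 in old 1, old 2 and old 3. Gadd45a and the immediate early list were highest in old 3, as were Btg2, Gadd45b and Gadd45g. Sesn1 was at -0.92, -0.23 and -0.98 in the 3 old hearts, with old 2 nearest to the young mean. Both lists, like the 10 genes, were chosen with earlier results of these data known, so their counts are description and not independent support. The part of such stimulus responses in the rises was not tested.

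**Figure D4:**
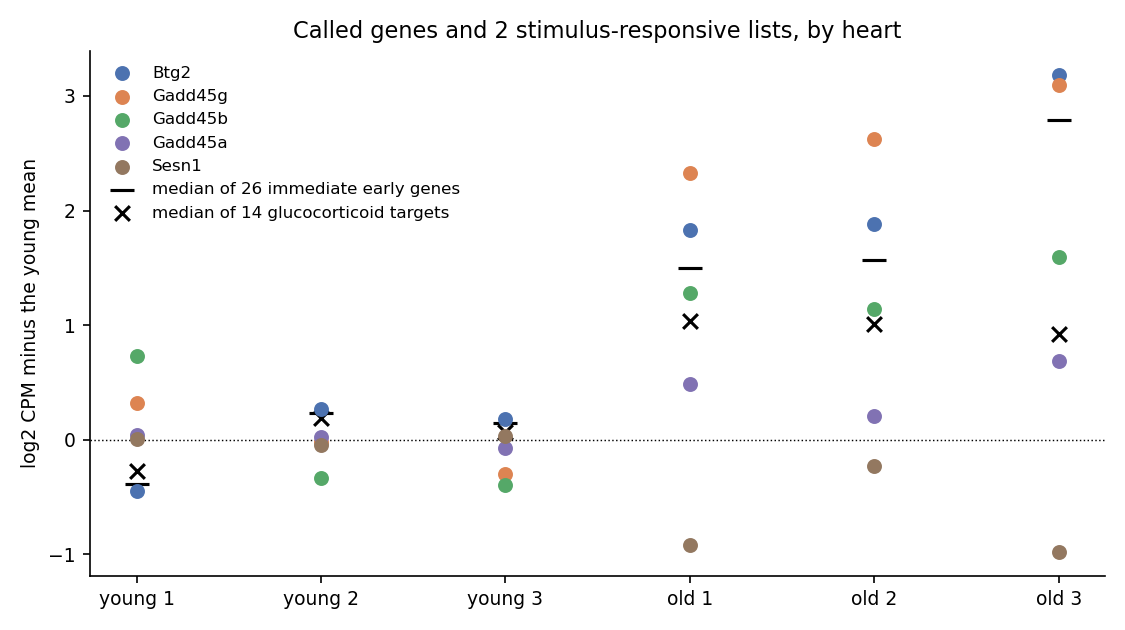
Log2 CPM minus the young mean of the 5 called genes in each heart, with the medians of 26 immediate early and 14 glucocorticoid target genes. Btg2 (3.19) and the immediate early median (2.79) are highest in old 3, and the glucocorticoid median is at 0.92 to 1.04 in all old hearts.

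The genes nearest to Gadd45g in pattern were Tmprss13, a membrane serine protease gene, Egr2, an immediate early transcription factor gene, and Thbs1, the gene of the matrix protein thrombospondin 1. Likeness was measured as the mean absolute difference in log2 CPM relative to the young mean over the 6 libraries. It was 0.25 for Tmprss13, 0.30 for Egr2 and 0.32 for Thbs1. Tmprss13 was scarce, at 0.516 ± 0.179 CPM in young hearts and 4.95 ± 1.91 CPM in old (SD, n = 3).

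Other p53 target genes changed in both directions. Of 32 tested genes of a textbook target list that leaves out the 10 genes above, 5 rose, 7 fell and 20 did not pass, with a median log2 fold change of 0.00. The share called was 37.5%, above the 22% of all tested genes, a difference that was not tested. Tnfrsf10b, the TRAIL death receptor, rose from 4.14 ± 0.244 to 12.6 ± 0.933 CPM (SD, n = 3; log2 fold change 1.60 ± 0.14, SE, edgeR adjusted p = 2.1e-05). Cdkn1a, the gene of the cell cycle inhibitor p21 and the textbook p53 target, rose from 48.8 ± 14.9 to 146.6 ± 21.0 CPM (1.59 ± 0.18). The stress kinase gene Plk3 rose from 4.995 ± 1.49 to 20.5 ± 6.53 CPM (2.03 ± 0.25). The other rises, named after their values were seen, were those of the death receptor gene Fas (0.62 ± 0.13) and the nuclease gene Aen. The falls, named in the same way, included Trp53inp1, an autophagy and cell death cofactor of p53 (-0.53 ± 0.11), Gdf15, a stress cytokine (-0.78 ± 0.18), and Rrm2b, a ribonucleotide reductase subunit for DNA repair (-0.32 ± 0.09). With a library left out 4 to 7 of the list rose, and 4 to 7 fell, the fewest falls without young 1.

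Among genes that control p53 or carry the DNA damage signal, the shares called were 16% of the p53 regulators and paralogs and 23.8% of the checkpoint genes, near the 22% of all tested genes. Of 25 tested p53 regulators and paralogs, 2 rose and 2 fell (median log2 fold change -0.08). The rises were Trp63, given above, and Cdkn2a, which encodes both p19Arf, a restraint on Mdm2, and the cell cycle inhibitor p16Ink4a, transcripts that gene counts do not tell apart (0.622 ± 0.278 CPM in young and 1.83 ± 0.436 in old hearts, lost without young 1). Smyd2, a methyltransferase that acts on p53, fell by 0.29 ± 0.09 on the log2 scale, a call kept in 1 of the 6 fits that omitted a library. In this list 0 genes fell without young 1, young 3 or old 1, and 1 fell without old 2 or old 3.

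Of 21 tested checkpoint genes 1 rose and 4 fell (median -0.04). Wee1, the kinase that delays entry into mitosis, rose from 11.3 ± 1.09 to 22.7 ± 6.11 CPM (log2 fold change 1.002 ± 0.18, SE, edgeR adjusted p = 0.0025). Atm, the kinase that senses double-strand breaks and phosphorylates p53, was at 18.5 ± 1.28 CPM in young and 14.04 ± 1.32 CPM in old hearts (-0.40 ± 0.11, edgeR adjusted p = 0.022). Atr, its counterpart for stalled replication forks, was lower by a like amount (-0.38 ± 0.11, adjusted p = 0.033). Atm was called in 2 and Atr in 1 of the 6 fits that omitted a library. The count of lower checkpoint genes was 0 without young 1 or young 3, 1 without old 1 or old 2, and 2 without young 2. Chek2, the kinase downstream of Atm, did not pass (-0.42 ± 0.20, edgeR adjusted p = 0.15). Without old 3 Chek2 was called lower (log2 fold change -0.61, edgeR adjusted p = 0.039).

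Of 36 tested DNA repair genes 1 rose, 4 fell and 31 did not pass (median -0.07). Ercc1, an endonuclease subunit of nucleotide excision repair, rose from 30.3 ± 0.436 to 40.6 ± 4.28 CPM (0.42 ± 0.09, edgeR adjusted p = 0.0079). Ercc2, a helicase of the same pathway, fell (-0.40 ± 0.11, edgeR adjusted p = 0.026). Among fits that omitted 1 library, Ercc2 passed only where young 2 or old 3 was the one left out. It also missed the threshold with DESeq2 (adjusted p = 0.066) and with limma on unfiltered log2(FPKM + 1) (adjusted p = 0.058). The count of falls was 1 without young 1, young 3 or old 1, and 2 without old 2. The share of calls among the repair genes, 13.9%, was below that of all tested genes (22%), a difference that was not tested.

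Partners of the proteins encoded by the 10 genes were measured too. The shares called were 16.7% of the Gadd45 kinases and partners and 25.8% of the sestrin, GATOR and mTORC1 genes. Both were near the 22% of all tested genes. Of 12 tested kinases and partners of the Gadd45 proteins 1 rose and 1 fell: Pcna, the replication clamp (0.43 ± 0.09, edgeR adjusted p = 0.0048), and Map2k7, the kinase that Gadd45b inhibits (-0.32 ± 0.08, adjusted p = 0.015, lost without young 3). Of 31 sestrin, GATOR and mTORC1 genes 3 rose and 5 fell. Nfe2l2, the antioxidant factor Nrf2, rose by a log2 fold change of 0.63 ± 0.10. Rragd, a Rag GTPase of amino acid sensing, fell from 153.4 ± 6.65 to 93.3 ± 18.9 CPM (-0.72 ± 0.12), and Prkaa1, a catalytic subunit of AMPK, was at -0.48 ± 0.10. In this list 1 gene rose without young 1, young 3 or old 1, and 2 fell without the same libraries (3 without young 2 or old 3).

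Of 16 BTG, TOB and CCR4-NOT genes other than Btg2, 1 rose and 3 fell. The share called, 25%, was near the 22% of all tested genes. Tob2, an antiproliferative relative of Btg2, rose from 63.1 ± 15.3 to 145.7 ± 10.4 CPM (log2 fold change 1.21 ± 0.15, SE, edgeR adjusted p = 0.00021). Btg1, its closest paralog, fell from 45.3 ± 3.94 to 30.5 ± 6.87 CPM (-0.57 ± 0.13, adjusted p = 0.011, lost without young 1). The deadenylase gene Cnot6l fell too (-0.50 ± 0.09). Without young 1 a single gene of the list fell.

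**Figure D5:**
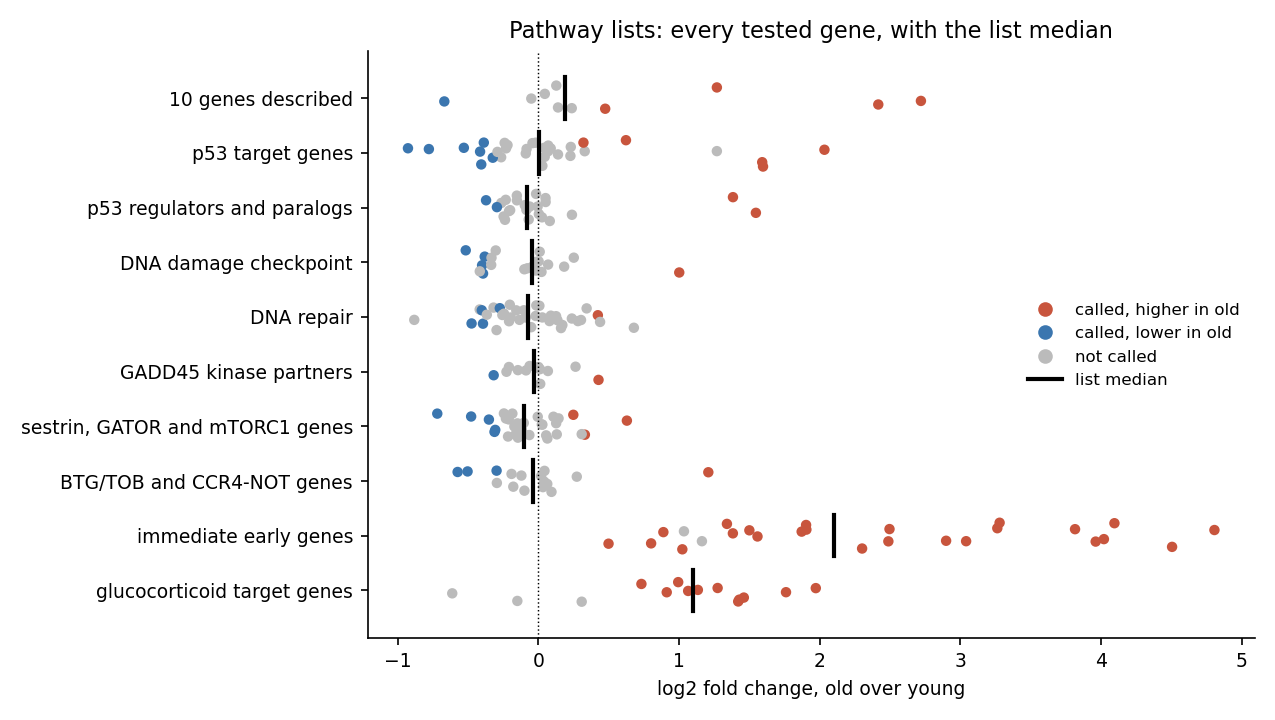
Log2 fold change, old over young, of every tested gene of each list (points, coloured by call) with the list median (black bar). The p53, checkpoint, repair and partner lists have medians near 0, between -0.10 and 0.00, and the immediate early (2.10) and glucocorticoid (1.10) lists lie to the right.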

How the data were processed

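RNA from 3 young and 3 old mouse hearts was isolated with mirVana reagents, and the TruSeq Stranded mRNA kit, which starts from polyadenylated RNA, gave the libraries, per the labels' protocols. The authors deposited whole-number counts per gene and FPKM values. The submitters' processing notes name GRCm39 as build and, with no role or version, the tools HISAT2, Bowtie2, StringTie, Cufflinks, HTSeq, Trimmomatic and DESeq. The strand setting of the counting is not given. The 12 deposited per-sample files equalled their table columns, and counts over FPKM gave a single length per gene for all 16964 genes with counts (relative tolerance 1e-04).

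Counts were tested with edgeR 4.0.16 (R 4.3.3): filterByExpr, TMM, quasi-likelihood F test over all 6 libraries, no covariate, Benjamini-Hochberg adjustment over 12893 genes, called at an adjusted p under 0.05. Standard errors come from the fold change and F. The test was also run on simulated counts, whose outcome is not given here. Levels and shares are mean ± SD over 3 hearts, and log2 fold changes are given ± SE. In CPM, 1 count is worth 0.0774 to 0.0885. Alternatives were other scalings and filters, a replicate block, each library left out, limma-voom (limma 3.58.1), DESeq2 1.42.0, and limma on log2 FPKM with a pseudocount of 1 or 0.1. Named genes are the 10 genes, up to 3 called genes of smallest p per list, 6 fixed p53 pathway genes and the 3 genes nearest in pattern to the gene of smallest p; others are said to be chosen later. A gene that this rule takes is not reported here. The 10 genes and the lists were chosen with earlier results of these data known. Lists are described by counts and medians.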

Additional observations from a re-analysis of the deposited data

How the results depend on the processing

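Over 17 alternatives, Gadd45b, Gadd45g and Btg2 were called higher in every one, and Trp53 and Ccng1 in none, with 1 direction throughout. The call of Gadd45a was lost in 9 and that of Sesn1 in 3. Higher calls over all genes ranged from 850 to 1597 and lower calls from 682 to 1444 with a library left out (850 and 707 without young 1, 870 and 682 without young 3, 818 lower without old 1). They were 907 higher on log2(FPKM + 1), 897 on log2(FPKM + 0.1), 810 on log2(FPKM + 1) with no filter, and 2122 lower with library size alone. Of the 10 genes 0 to 1 were called lower with a library left out and 0 with DESeq2; the cause was not tested. The log2 fold change of Sesn2 turned to -0.035 with library size alone, -0.00035 with upper-quartile factors, -0.014 without young 1 (up to 0.13 with another library left out), -0.022 on log2(FPKM + 1) with and without the filter, and -0.033 on log2(FPKM + 0.1). That of Zmat3 was 0.020 without young 3 (down to -0.10 with another library left out), and that of Mdm4 was 0.0067 without young 1, 0.0014 without old 1 and 0.070 without old 2 (-0.10 without old 3).

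Deviations of same-numbered young and old hearts from their group means correlated at 0.078, 0.078 and 0.0067. Among old hearts the best match of young 1 was old 1, and that of young 2 and of young 3 was old 2. With 3 hearts per group these values cannot decide whether the numbers mark pairs. With a replicate block 1417 genes were higher and 1317 lower, 4 and 1 of the 10 genes among them. Lower checkpoint genes numbered 2 and lower sestrin and mTORC1 genes 3 under the block. Between pairs of hearts of a group the variance was 7.9 to 16.7 times that of counting alone. These are chi-square values over their degrees of freedom, for genes with 20 or more counts in a pair. Scarce genes such as Trp63 (7 to 21 counts) are limited by depth too. With 3 hearts against 3, an exact permutation test cannot go below p = 0.1.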
